A study of Mus musculus with 2 samples.

Results

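The Mir29 family consists of 4 miRNA genes, Mir29a, Mir29b-1, Mir29b-2 and Mir29c, which were chosen by name and found by their Ensembl identifiers among the 1973 miRNA genes counted in this series. All 4 were present in both deposited count files. The series is microRNA sequencing of RNA shorter than 30 bases from mouse embryonic facial prominence, the tissue that forms the face, at embryonic day 13.5. It holds 1 group of 2 libraries, biological replicates 2 and 1, from healthy embryos of strain B6NCrl with males and females pooled, without treatment or genetic change per the labels, which give both tissue samples the same donor record. No condition is compared with another, so the data give levels and their spread between these libraries, which may be partly technical.

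Members of the miR-29 family are textbook repressors of extracellular matrix genes. Their shared seed, the stretch near the 5′ end that pairs with messenger RNA, matches sites in transcripts of fibrillar and basement membrane collagens, elastin and fibrillin, and low miR-29 accompanies matrix deposition in fibrosis. Facial prominences at midgestation consist largely of neural crest derived mesenchyme under an epithelium, and this mesenchyme lays down the collagen-rich matrix of the future facial skeleton and connective tissue.

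The 4 genes lie at a pair of loci (GRCm38, the build named mm10 in the deposited description files). Mir29a occupies bases 31062660 to 31062747 and Mir29b-1 bases 31063023 to 31063093 on the minus strand of chromosome 6, with 275 bases between them. No other annotated gene overlaps Mir29a, and Mir29b-1 shares 2 bases with an exon of the long non-coding RNA gene Gm27019 on the same strand. Mir29b-2 occupies bases 195037040 to 195037120 and Mir29c bases 195037547 to 195037634 on the plus strand of chromosome 1, with 426 bases between them. Both lie in exons of the non-coding transcript A330023F24Rik and, on the other strand, in untranslated exon sequence of Cd46, a complement regulator. Opposite-strand counts at all 4 Mir29 genes were 0 in both libraries.

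The mature 3p arms are shown because they carry the family's seed and because their differences decide which reads can be assigned to a single gene. Capitals mark the seed, bases 2 to 8, and the sequences are those of RefSeq on GRCm38.
mmu-miR-29a-3p: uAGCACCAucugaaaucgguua
mmu-miR-29b-3p: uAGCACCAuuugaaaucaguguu
mmu-miR-29c-3p: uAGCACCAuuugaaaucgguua

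Among 1738 mature entries of 1058 miRNA genes in the RefSeq table, the seed AGCACCA belonged to these 4 genes and to no other. Counting from 1 at the 5′ end, miR-29a-3p differed from miR-29c-3p by C10U alone. miR-29b-3p differed from miR-29c-3p by A18G, G21U and U22A and by a further base at its 3′ end, being 23 bases long against 22, and the first 17 bases of both were identical. Mir29b-1 and Mir29b-2 encode the same miR-29b-3p, base for base.

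The hairpins are shown because the surrounding sequence tells the Mir29b genes apart where the 3p arm, in capitals, does not.
Mir29a hairpin: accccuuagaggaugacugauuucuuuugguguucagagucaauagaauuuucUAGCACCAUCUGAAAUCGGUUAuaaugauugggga
Mir29b-1 hairpin: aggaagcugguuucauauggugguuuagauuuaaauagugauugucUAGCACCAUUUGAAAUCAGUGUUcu
Mir29b-2 hairpin: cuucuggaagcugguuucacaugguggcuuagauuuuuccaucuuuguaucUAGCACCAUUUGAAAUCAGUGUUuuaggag
Mir29c hairpin: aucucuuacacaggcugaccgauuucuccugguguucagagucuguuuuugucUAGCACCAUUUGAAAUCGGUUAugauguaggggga

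The longest stretch common to the Mir29b-1 and Mir29b-2 hairpins was 25 bases and took in the whole 3p arm. A full-length read of miR-29b-3p therefore has a place at both loci. Of the windows of 22 bases, 5 of 50 in the Mir29b-1 hairpin, 4 of 60 in that of Mir29b-2 and 1 of 67 in that of Mir29c also stood in another hairpin. No window of 22 or of 18 bases of Mir29a occurred in any other of the 1005 hairpins. The rest of the genome was not searched, since only these tables were used.

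Levels are given as CPM, the counts of a gene on its own strand per 1000000 such counts on all miRNA genes of the library. Replicate 2 had 5771249 of these counts and replicate 1 had 4562135. Reads placed at several loci stood in a class of their own, 31.0% of the reads in replicate 2 and 30.7% in replicate 1, and were assigned to no gene. Fewer cells making a miRNA and less of it per cell cannot be told apart in whole tissue. Wilson 95% intervals, given below for each library, describe counting error only and take each read as independent. Reads amplified by PCR are not independent molecules, so the intervals may be too narrow even for that error.

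Uniquely placed reads of the Mir29 family were scarce in this tissue. Its 4 genes together had 816 counts in replicate 2 and 517 in replicate 1. The sum was 141 CPM (interval 132 to 151) in replicate 2, against 113 CPM (interval 104.0 to 124) in replicate 1, a mean of 127 ± 19.8 CPM (SD, n = 2). As a share of all miRNA gene counts the family held 0.0141% in replicate 2 and 0.0113% in replicate 1. Multiply placed reads, which take in full-length miR-29b-3p, are in none of these values, so they give no upper limit for the family as a whole.

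Mir29a, of the chromosome 6 locus, was the highest member by uniquely placed reads. Replicate 2 gave 543 counts or 94.1 CPM (86.5 to 102), and replicate 1 gave 335 counts or 73.4 CPM (66.0 to 81.7), for a mean of 83.8 ± 14.6 CPM (SD, n = 2). The library intervals did not overlap. Mir29a ranked at place 200 of the 683 genes with a count, whose median level was 3.59 CPM.

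Mir29c, of the chromosome 1 locus, came next. Replicate 2 gave 257 counts or 44.5 CPM (39.4 to 50.3), and replicate 1 gave 173 counts or 37.9 CPM (32.7 to 44.0), for a mean of 41.2 ± 4.67 CPM. Its library intervals overlapped, and its mean placed it at 238 among the genes with a count.

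Uniquely placed reads of the Mir29b genes were rare. Mir29b-1 had 13 counts (2.25 CPM, 1.32 to 3.85) in replicate 2 and 9 counts (1.97 CPM, 1.04 to 3.75) in replicate 1. Mir29b-2 had 3 counts in replicate 2, or 0.520 CPM (0.177 to 1.53), and 0 in replicate 1. Up to 3 counts could go unseen at a count of 0, or 0.658 CPM at the depth of replicate 1. These values leave out multiply placed reads, so they set no upper limit on the amount of miR-29b, and the low places of these genes among detected genes, 381 and 578, are not levels of the mature miRNA.

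**Figure D1:**
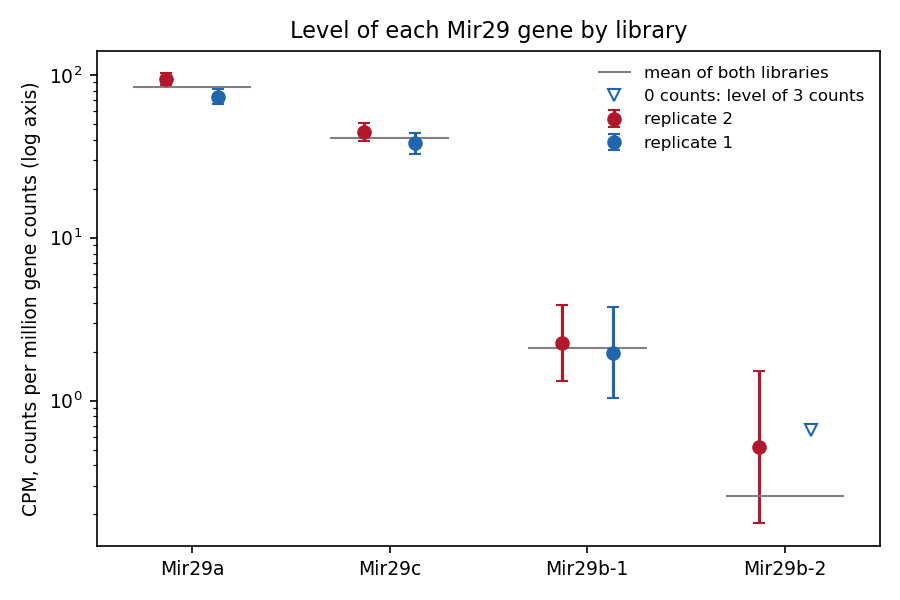
Level of each Mir29 gene in each library as CPM on a log axis, with 95% Wilson intervals as bars and the mean of both libraries as a grey line. Mir29a and Mir29c stand between 37.9 and 94.1 CPM, and the Mir29b genes, counted without multiply placed reads, at 2.25 CPM or below, with the open triangle at the level of 3 counts for a count of 0.

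The order of the family was Mir29a, Mir29c, Mir29b-1, Mir29b-2 in both libraries. The intervals of Mir29a and Mir29c did not overlap in either library, nor did those of Mir29c and Mir29b-1. Those of Mir29b-1 and Mir29b-2 overlapped in replicate 2, while in replicate 1 the limit of 0.658 CPM for Mir29b-2 lay below the interval of Mir29b-1. Mature arms of the family were 22 to 25 bases long, and levels were not divided by length. The hairpins of Mir29a and Mir29c are both 88 bases long, so their ratio is the same per length.

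Mir29a exceeded Mir29c by 2.11-fold in replicate 2 (exact 95% interval 1.82 to 2.46) and by 1.94-fold in replicate 1 (1.61 to 2.34). This ratio depends on no scaling between libraries. Mir29a exceeded its locus partner Mir29b-1 by 41.8-fold in replicate 2 (24.2 to 79.0) and by 37.2-fold in replicate 1 (19.4 to 82.1). Over Mir29b-2, Mir29a stood 181-fold higher in replicate 2 (61.6 to 880). In replicate 1, where Mir29b-2 had 0 counts, the exact interval had a lower limit of 90.3-fold and no upper limit. The ratios to the Mir29b genes compare genes that were not counted alike.

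The chromosome 6 locus gave the larger part of the uniquely placed counts, which were nearly all of Mir29a and Mir29c. Its genes held 68.1% of the family's counts in replicate 2 (64.9 to 71.2) and 66.5% in replicate 1 (62.4 to 70.5), and the chromosome 1 locus held the remainder. Reads of miR-29b-3p, encoded at both loci, were not divided between them. In Fisher's exact test, two-sided, none of the 6 pairs of members passed the threshold for a difference in ratio between the libraries. The smallest p was 0.279, for Mir29b-2 against Mir29c, and every adjusted p over the 6 pairs was 0.584 or more. For Mir29a against Mir29c the exact p was 0.469 (adjusted p = 0.704).

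Between the libraries, Mir29a was 1.28-fold higher in replicate 2 than in replicate 1 (exact 95% interval 1.12 to 1.47). That is a log2 ratio of 0.36, with an adjusted p of 0.000875 in the two-sided exact binomial test with TMM scaling and Benjamini-Hochberg adjustment over the 360 genes with at least 10 counts in both libraries. Mir29c was 1.17-fold higher in replicate 2 (0.964 to 1.43), a log2 ratio of 0.23, and did not pass (adjusted p = 0.166, exact binomial test). Mir29b-1 and Mir29b-2 had too few counts to be tested at that minimum. Of the 2 tested members, 1 thus passed and was higher in replicate 2. Of all 360 tested genes, 55% passed (198 genes) and 27.8% passed with a higher level in replicate 2, so this count shows nothing particular to Mir29.

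The Mir29a difference was above the middle of tested genes in size. Their median absolute log2 ratio was 0.24, and 54 of the 360 had a larger ratio in favour of replicate 2. Beyond counting noise, genes varied between the libraries with a coefficient of variation of 17.99% (common dispersion of edgeR). The binomial test sets the libraries against counting error and says nothing of conditions.

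Set beside 15 other miRNA families, Mir29 was the lowest in both libraries by uniquely placed reads. The Mir29 total in the folds below is the sum of such reads and leaves out multiply placed ones. The families were picked as abundant or well-known ones with earlier results of these data in view, so the order describes these 16 alone. The let-7 genes, regulators of developmental timing, held 130238 CPM in replicate 2 and 150038 CPM in replicate 1, on average 1100.4-fold the Mir29 total. Mir99 and Mir100 held on average 972-fold the Mir29 total. The Mir17 family, tied to proliferation, held 79863 and 72576 CPM in replicates 2 and 1, on average 598-fold the Mir29 total. Mir23 stood at 591-fold and the family of Mir15, Mir16 and Mir322 at 397-fold.

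The Mir30 family, which targets connective tissue growth factor, held 27084 CPM in replicate 2 and 24487 CPM in replicate 1, on average 202-fold the Mir29 total. The Mir26 family held 29559 ± 2102 CPM (SD, n = 2), which was 232-fold. The Mir200b, Mir200c and Mir429 genes of epithelium summed to 27320 ± 5162 CPM, or 215-fold.

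The family nearest to Mir29 stood at 14.4-fold the sum of its uniquely placed reads, which leaves out full-length miR-29b-3p. Mir148 and Mir152 held 1942 CPM in replicate 2 and 1719 CPM in replicate 1. The Mir199 family of mesenchyme held 2594 and 2169 CPM in replicates 2 and 1 (18.7-fold), and the Hox-linked Mir10 family 2335 and 4458 CPM (26.7-fold). The remaining families, Mir27, Mir125, Mir181, and Mir130 with Mir301, were between 38.1-fold and 333-fold the Mir29 total.

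In no family did the values of either library reach down to those of Mir29. With 2 libraries for each family, an exact permutation test cannot go below p = 0.333, so no test of this order was made. The families were not counted alike. Of the members in the files, 4 of 10 in let-7, 2 of 4 in Mir29, 4 of 6 in Mir181, 2 of the 4 Mir30 genes with an entry, 2 of 6 in the family of Mir15, 2 of 3 in Mir26, 2 of 3 in Mir125 and all 3 in Mir199 share a mature sequence with another gene in the table, and none in the other families. When such genes were left out of every family, Mir29 stood at 125 CPM and again last, at place 15 of the 15 families that remained. The Mir29b genes left out held only 2.37 CPM of uniquely placed reads, so this step could hardly move Mir29. It brings back no multiply placed reads and cannot show the place of the whole family. By its highest gene in place of the sum, Mir29 was last of 16 as well.

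**Figure D2:**
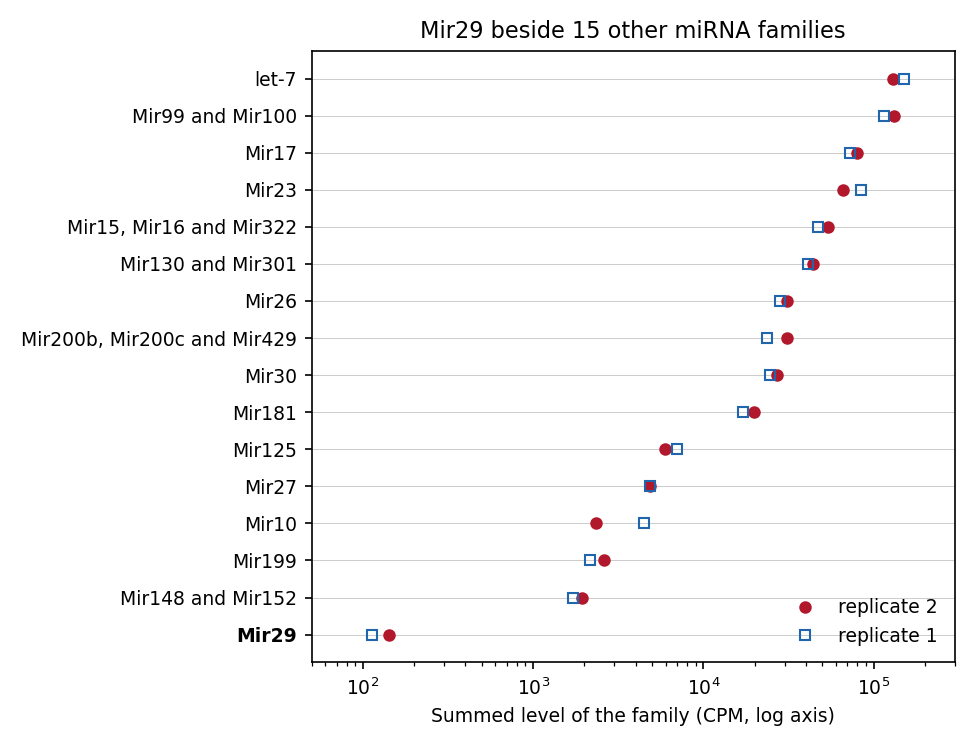
Summed level of each of 16 miRNA families in CPM on a log axis, with filled circles for replicate 2 and open squares for replicate 1. By uniquely placed reads, Mir29 stands at 141 and 113 CPM, and the next family, Mir148 with Mir152, at 1942 and 1719 CPM.

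The highest gene of each family gave the same picture. Mir29a at 83.8 ± 14.6 CPM compared with Mirlet7i at 65548 ± 11599, Mir99a at 65543 ± 9361, Mir23b at 56985 ± 11827, Mir322 at 43792 ± 4597, Mir17 at 36397 ± 32.0 and Mir130a at 33083 ± 2498 CPM (SD, n = 2). Mir26b stood at 29506 ± 2092, Mir30e at 16421 ± 1438, Mir429 at 15915 ± 3532 and Mir181c at 7774 ± 932 CPM. The leading genes of the lower families were Mir27b at 4543 ± 47.7, Mir125a at 3910 ± 712, Mir10b at 2326 ± 559, Mir199b at 2093 ± 261 and Mir148a at 1563 ± 162 CPM.

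Several miRNA genes known from mesenchyme and cartilage were abundant in the same libraries, which are of whole tissue and assign no level to a cell type. Of 8 listed mesenchyme and cartilage genes, 7 lay above Mir29a and also above the sum of the uniquely placed Mir29 counts. That sum leaves out multiply placed reads, so the place of these genes beside the whole family was not measured. Of the 683 genes with a count, 199 lay above Mir29a by mean level. All 7 epithelium genes and the endothelial Mir126a lay above both Mir29a and that sum. So did 1 of 6 neural genes and 1 of 5 striated muscle genes, while Mir122 of liver did not. A place above Mir29a is thus not particular to the mesenchyme and cartilage list. Mir214, from the Dnm3os transcript of mesenchyme, had 24589 CPM in replicate 2 and 26825 CPM in replicate 1, which were 261-fold and 365-fold the level of Mir29a. Mir140, the cartilage miRNA, had 22710 and 18603 CPM in replicates 2 and 1, or 241-fold and 253-fold. Mir143, known from smooth muscle and fibroblasts, had 19231 and 16319 CPM, or 204-fold and 222-fold.

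Lower on that list, Mir199b stood at 2093 ± 261 CPM and Mir455, a second cartilage miRNA, at 1699 ± 212 CPM. Mir199a-2 (265 ± 34.2 CPM) and Mir145a (258 ± 18.8 CPM) were above Mir29a by 3.07-fold and 2.89-fold in replicate 2 and by 3.27-fold and 3.34-fold in replicate 1. Mir199a-1 (24.3 ± 4.88 CPM) lay below Mir29a. Mir199b, Mir199a-2 and Mir199a-1 each share a mature sequence with another gene, so their values leave out multiply placed reads. The list summed to 70945 CPM in replicate 2 and 66010 CPM in replicate 1. All 8 genes passed the binomial test between the libraries, where 55% of all tested genes passed. Of the 8, 6 passed with a higher level in replicate 2, as 27.8% of all tested genes did. The test is against counting error alone, so these counts show nothing particular to the list.

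**Figure D3:**
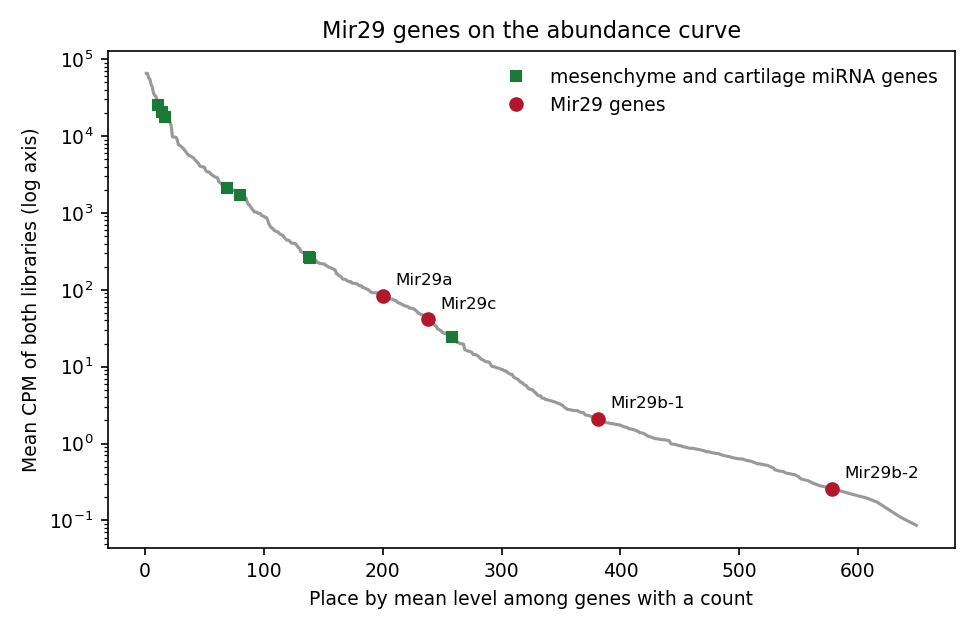
Mean CPM of both libraries on a log axis against place among the 683 genes with a count, with Mir29 genes as circles and mesenchyme and cartilage genes as squares. Mir29a and Mir29c fall at places 200 and 238, and 7 of the 8 mesenchyme and cartilage genes lie to their left.

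Other miRNAs tied to fibrosis or matrix gave a wide range. Mir21a, which promotes fibrosis in heart and kidney, had 6159 CPM in replicate 2 and 5335 CPM in replicate 1, 65.5-fold and 72.6-fold the level of Mir29a. Mir22 stood at 2435 ± 181 CPM, Mir101b at 2216 ± 263 CPM and Mir101a at 189 ± 14.3 CPM. Mir192, an epithelial miRNA of kidney and gut, was close to Mir29a, at 89.9 ± 7.84 CPM against 83.8 ± 14.6 CPM. Within the libraries it stood at 1.01-fold the level of Mir29a in replicate 2 and at 1.15-fold in replicate 1. Mir133a-1 and Mir133a-2, of striated muscle, had no uniquely placed count, and Mir378a was not analysed here.

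**Figure D4:**
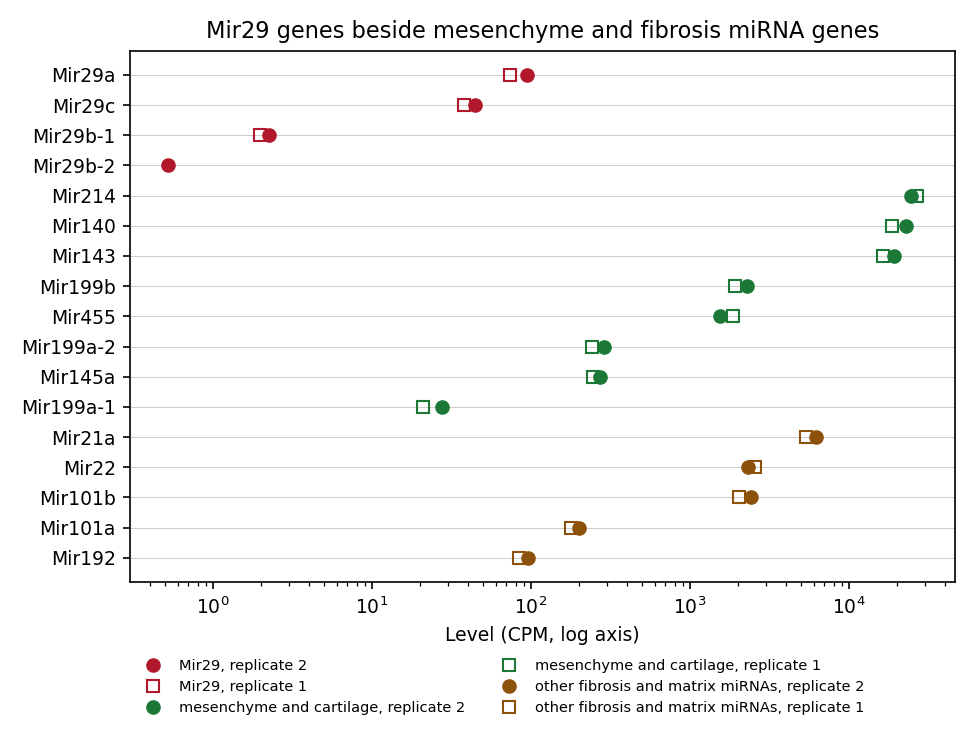
Level in CPM on a log axis of the Mir29 genes, of 8 mesenchyme and cartilage genes and of 5 other fibrosis and matrix genes with a count, with filled circles for replicate 2 and open squares for replicate 1. Mir29a stands beside Mir192, and Mir214, Mir140 and Mir143 lie over 200-fold higher; the 0 of Mir29b-2 in replicate 1 is not drawn.

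By the sum of each list, markers of mesenchyme, epithelium and vessels, the main parts of this tissue, were abundant. Of the epithelium list, 7 of 7 genes were detected, with a sum of 63309 CPM in replicate 2 and 63539 CPM in replicate 1, and the endothelial Mir126a stood at 23871 and 25810 CPM. Neural genes summed to 309 and 324 CPM with 3 of 6 at 0, and striated muscle genes to 325 and 583 CPM with 3 of 5 at 0. Nearly all of each sum came from a single gene, Mir137 at 304 and 315 CPM and Mir206 at 314 and 570 CPM in replicates 2 and 1. The genes at 0 are Mir124a, Mir9, Mir1a and Mir133a genes, whose miRNAs are known to be encoded at several loci, so a 0 sets no limit on them. Mir122, of liver, stood near Mir29a, with 109 CPM in replicate 2 and 49.5 CPM in replicate 1. It was higher in replicate 2, as Mir29a was, and its part in the difference of Mir29a was not tested.

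The 5 genes nearest to Mir29a in level, by the Euclidean distance of log2(CPM + 0.5) over the 2 libraries, were Mir33, Mir192, Mir451a, Mir190a and Mir452. Mir33, from an intron of the sterol regulator Srebf2, had 90.3 CPM in replicate 2 and 73.0 CPM in replicate 1, at a distance of 0.0600. Mir451a, the erythroid miRNA, had 86.3 and 65.8 CPM in replicates 2 and 1, at a distance of 0.201. Mir452, known from neural crest cells of the pharyngeal arches, had 90.1 and 85.9 CPM, at a distance of 0.234. Mir190a had 88.5 and 63.1 CPM, at a distance of 0.233. With 2 libraries such likeness is one of level alone.

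Sites for this seed were looked up in the messenger RNAs of matrix genes, since the family is known for repressing them. The letters TGGTGCT, the reverse complement of the seed, were searched on the mRNA strand of the longest annotated 3′ UTR of each gene in GENCODE M21. The 20 matrix genes were picked as a group known to include miR-29 targets, so a high share among them is no independent result. Messenger RNA was not measured in this series.

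Of the 20 genes, 16 held at least 1 match and 7 held 2 or more, 28 matches in all. Among all 20996 genes with a 3′ UTR, 13.1% held a match and 2.02% held 2 or more. Matches came at 1.04 per 1000 bases in the matrix genes and at 0.106 per 1000 bases over all genes. Of the 14 collagen genes, 12 held a match.

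Col5a1, a chain of fibril-nucleating type V collagen, held 4 matches in 2498 bases. Of the 2275 UTRs of like length (within 1.2-fold), its own included, 0.0440% held at least as many. Col5a3 held 3 in 785 bases, and 0.0911% of UTRs of like length held at least as many. Eln, which encodes elastin, held 3 in 1188 bases (0.119%), and Lox, the enzyme that crosslinks collagen and elastin, held 3 in 3160 bases (0.894%). Each of these shares counts the UTR of the gene itself, so they are not shares of other genes alone. Col11a1, of cartilage fibrils, Col4a2, of basement membranes, and Fbn1, which encodes fibrillin of microfibrils, held 2 each.

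The other genes with a match held 1 each, namely Col1a1, Col2a1, Col3a1, Col4a1, Col5a2, Col6a2, Col6a3, Col15a1 and Lamc1. For Col1a1, the main chain of bone and skin collagen, 13.1% of UTRs of like length (1423 bases), its own included, held a match. Col1a2, Col6a1, Fn1 and Sparc held none in this window, which says only that these letters are not there.

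A few sites, picked after their letters were seen from those followed by an A, are shown to let the seed be read against its match. Each is the stretch of 22 bases that lies opposite bases 22 to 1 of a 22-base miRNA, read 5′ to 3′ on the mRNA strand (GRCm38), with the match in capitals.
Col1a1 chr11:94952524-94952545, plus strand: tgggaaggaatttcTGGTGCTa
Col3a1 chr1:45348968-45348989, plus strand: tcaaaatgtctcaaTGGTGCTa
Col2a1 chr15:97975681-97975702, minus strand: cgtgtcctacacaaTGGTGCTa
Col5a1 second match chr2:28038020-28038041, plus strand: acacttgtctcttgTGGTGCTa
Eln first match chr5:134703736-134703757, minus strand: gacctcatcaacgtTGGTGCTa
Fbn1 first match chr2:125301173-125301194, minus strand: ttctgttgtctgttTGGTGCTa

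An A after the match is the base found opposite base 1 of the miRNA in the strongest class of seed site. Of the 28 matches, 15 were followed by an A and 13 were not, including all matches of Lox, Col4a2 and Col11a1. The Col1a1 match began 919 bases after the stop codon, that of Col3a1 at base 235 and that of Col2a1, the cartilage collagen, at base 352. Every Mir29 gene gives a 3p arm with this seed, so these letters match all of the family alike.

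**Figure D5:**
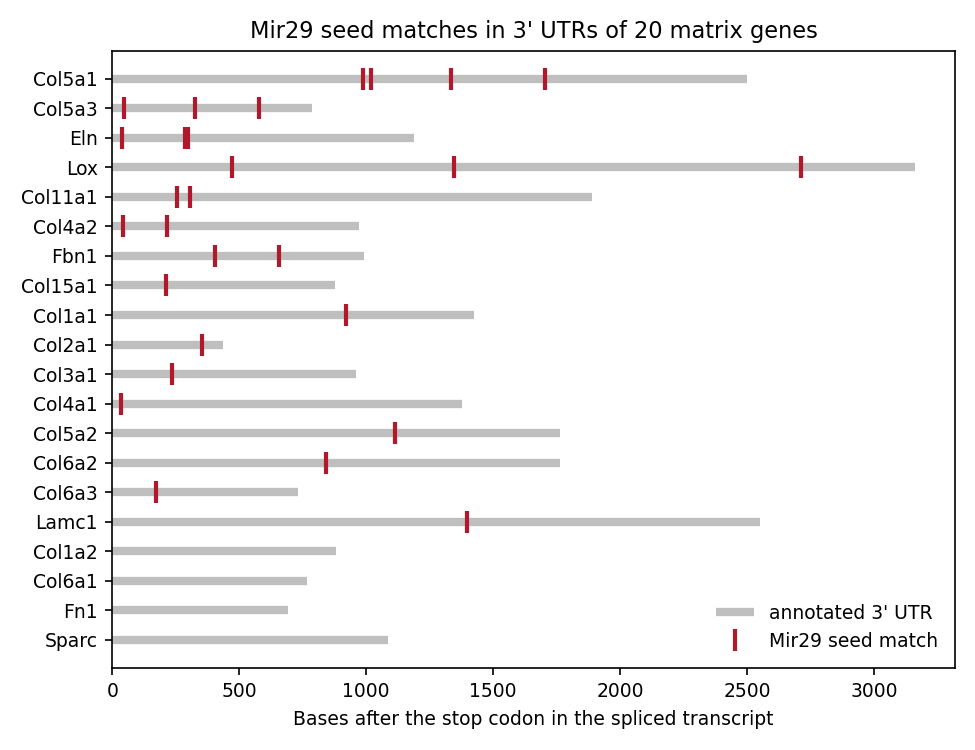
Annotated 3′ UTRs of 20 matrix genes as grey bars, drawn to scale in bases after the stop codon, with each seed match as a red tick. Col5a1 has 4 ticks, Col5a3, Eln and Lox have 3 each, and Col1a2, Col6a1, Fn1 and Sparc have none.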

How the data were processed

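The 2 libraries are biological replicates of 1 group. The authors deposited whole-number read counts per miRNA gene in 3 columns, made on mm10 with GENCODE M4 per the deposited description files. The files have no header, and the columns were read from their layout as counts without regard to strand, on the strand of the gene and on the opposite strand. The first equalled the sum of the others in every gene line (0 exceptions). How reads were trimmed, aligned and counted is not given in the sources used here.

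Same-strand counts were used, and the lines of read classes stayed out of the totals. Names and positions came from GENCODE M21 on the same build, where 1894 of 1973 identifiers matched, and sequences from RefSeq tables on GRCm38 and GENCODE M21 transcripts. All 4 members matched in each. CPM, Wilson and exact binomial intervals at 95%, the exact binomial test (count minimum 10, TMM scaling, Benjamini-Hochberg at 0.05) and Fisher's exact test were computed with edgeR 4.0.16, R 4.3.3 and scipy 1.17.1. The binomial test was tested on simulated data drawn with counting error alone, without the further spread seen between the libraries. Alternatives were unstranded counts, DESeq2 1.42.0 size factors, totals, mapped reads, other minimums (1 and 100), a total without its leading gene, unshared genes, leading genes, hairpin length, and leaving out each library.

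The named genes were the members, the leading gene of each family, the mesenchyme and fibrosis lists, and the 5 genes nearest to the highest member. Members and lists were chosen with earlier results of these data known. Of the listed genes, Mirlet7e, Mirlet7f-1, Mir497, Mir9-1, Mir1a-2, Mir101c and Mir378a were not analysed here.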

Additional observations from a re-analysis of the deposited data

Results flagged for a closer look

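Reads placed at several loci lie outside the gene counts, with 4058237 reads in replicate 2 and 3179149 reads in replicate 1. They carry no gene in the files, so the part of them that comes from miR-29b-3p, whose sequence stands at both Mir29b loci, was not measured.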

How the results depend on the processing

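Per 1000000 mapped reads, with multiply placed reads in the total, levels were lower by construction: 46.6 for Mir29a, 22.9 for Mir29c and 1.18 for Mir29b-1, and the family share was 0.00709%. Without genes that share a mature sequence, Mir29 took place 15, again the last, because the Mir199 family had no gene left. That setting brings back no multiply placed reads. In each library alone, Mir29a ranged from 73.4 to 94.1 CPM, Mir29c from 37.9 to 44.5, Mir29b-1 from 1.97 to 2.25, Mir29b-2 from 0 to 0.520 CPM, the family share from 0.0113 to 0.0141%, the ratio of Mir29a to Mir29c from 1.94 to 2.11, and the place among families stayed at 16. Mir29a passed the exact binomial test between the libraries under all 5 other settings tried (adjusted p from 0.000359 to 0.000874), and Mir29c passed under none of them (0.121 to 0.167). The count of genes that differed between the libraries lay between 178 and 209 under these settings, out of unlike numbers of tested genes. It was 178 of 259 at a count minimum of 100, 202 of 552 at a minimum of 1 and 209 of 369 for unstranded counts. The share that passed thus differed between settings. The division by hairpin length was added after the data were seen and left Mir29 last. No paired analysis was possible because there is 1 group. The Mir29b genes had 13 counts or fewer in each library, so their values carry wide counting intervals.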
